A study of Mus musculus with 8 samples.

Results

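The pericentral Wnt zonation genes are 10 genes read out in mouse liver: the ligand Rspo3, the receptor Lgr5, the ubiquitin ligases Rnf43 and Znrf3, the feedback regulator Axin2, the transcription factor Tbx3, and the nitrogen-handling genes Glul, Oat, Slc1a2 and Rhbg. They were found by name, through the RefSeq accession of each probe on a custom Agilent array, and all 10 of 10 were present among the 42982 features tested, of which 23911 were named genes. The arrays carried liver RNA of male recombinant congenic mice made from NZO/HiBomDife and C57BL/6J. The NB group was Ltg/NZO.5.3N/B (4 arrays, numbered 2, 3, 5 and 8), and the group it was set against, NN, was Ltg/NZO.5.3N/N (4 arrays, numbered 1, 4, 6 and 7). The genotypes differ in 5.3 Mbp on chromosome 18, both groups ate a diet with 45% fat, and the mice were 5 weeks old. No member lies on chromosome 18. The labels name liver tissue as a whole, so every value is a mean over hepatocytes and all other cells of the organ, and fewer cells of a type and less RNA per cell cannot be told apart. Each group is 1 congenic line under 1 diet; a lean diet and the parent strains are not analysed here.

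In the liver lobule, blood flows past hepatocytes towards the central vein, and endothelial cells around that vein secrete Wnt proteins and R-spondin 3. These signals stabilise beta-catenin in the nearest hepatocytes and switch on a pericentral programme. Its best-known enzyme, glutamine synthetase, is made only in the hepatocytes that border the central vein, where it captures the ammonia that the periportal urea cycle has left. The same pathway limits itself, because beta-catenin also drives its own inhibitors.

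Levels are given as log2 signal relative to the 75th percentile of all probes on the same array, so 0 is the level of a fairly bright probe. The 75th percentile lay between 445 and 584 intensity units, 74.9% to 80.1% of probes were well above background, no spot was saturated, and all 8 arrays shared 1 slide. Array NB 8 correlated least with the others, at a mean of 0.9904 against 0.9929 to 0.9931 for the other NB arrays. Every member was well above background on all 8 arrays. So were all 8 hepatocyte markers (Alb and Apoa1 among them), all 10 markers of sinusoidal endothelium and all 6 of central vein endothelium. Most features met this mark as well: 39704 had a probe well above background on all 8 arrays, beside 42982 tested. These counts therefore do not show which cells were represented.

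No difference between NB and NN livers was detected in any of the 10 genes. None passed limma's test at an adjusted p of 0.05 (each had an adjusted p of 1.00), against a background of 0.00698% of all features (3 of 42982). These 3, AK089264, F830016B08Rik and Vmn1r65, were all higher in NB and none is a member. At an unadjusted p under 0.05 the count of members was again 0, against 1.69% of all features, and in 0 members did the 4 NB values lie apart from the 4 NN values, against 1.16% of all features. The log2 difference, NB minus NN, was above 0 in 5 members and below 0 in 5, with a median of -0.04 beside -0.01 over all features, of which 45.9% were above 0. The 95% intervals of the 10 differences ran no lower than -1.13 (Tbx3) and no higher than 0.61 (Znrf3), and those of most members were narrower, as given with each gene.

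**Figure D1:**
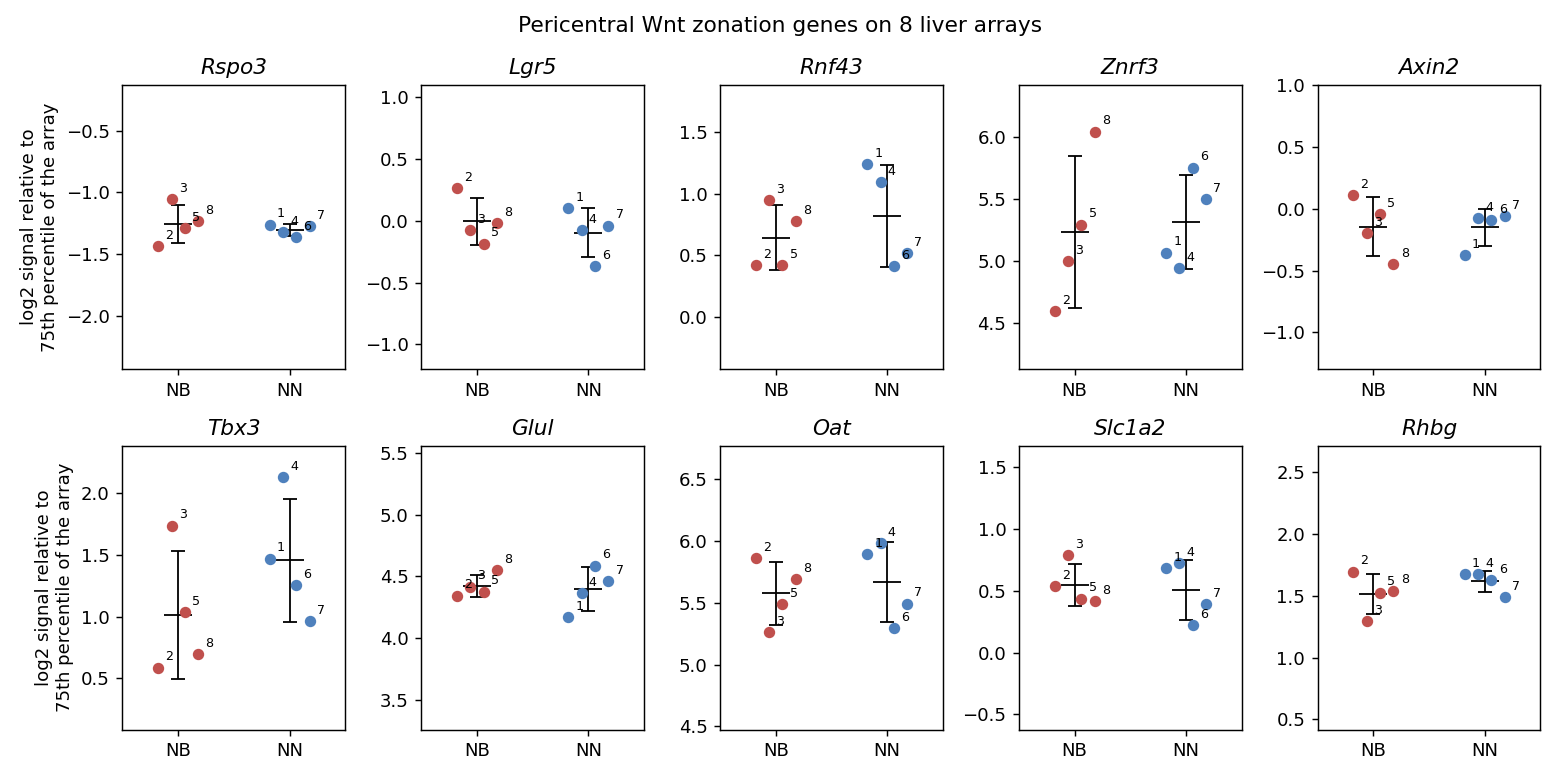
Log2 signal of each member relative to the 75th percentile of its array (y axis, the same span in every panel) for the 4 NB and the 4 NN arrays, with array numbers beside the points and bars for the mean and SD. In every panel the genotypes overlap, and the points spread most in Znrf3 and Tbx3 and least in Rspo3.

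Rspo3 is the R-spondin that endothelial cells of the central vein release, and it keeps Wnt receptors at the surface of nearby hepatocytes. It stood at -1.44, -1.06, -1.29 and -1.24 in NB 2, 3, 5 and 8, against -1.26, -1.32, -1.36 and -1.27 in NN 1, 4, 6 and 7. The NN arrays lay close together, and NB held both the highest and the lowest array. The means were -1.26 ± 0.157 in NB and -1.30 ± 0.047 in NN (SD, n = 4 each), a difference of 0.05 with a standard error of 0.0919 and a 95% interval of -0.16 to 0.26. Its SD within genotypes, 0.116, was the smallest of the 10 members.

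Lgr5 is the cell-surface receptor that binds R-spondins and marks pericentral hepatocytes. Its values were 0.26, -0.08, -0.18 and -0.02 in NB 2, 3, 5 and 8, against 0.10, -0.07, -0.37 and -0.04 in NN 1, 4, 6 and 7. Array NB 2 was the highest and NN 6 the lowest, with the other arrays interleaved. The difference was 0.09 (SE 0.130, 95% interval -0.20 to 0.39). By slide row it was 0.34 among the 4 arrays in the first row of the slide and -0.16 among the 4 in the second, with 2 arrays of each genotype in either row. The difference between rows was not tested.

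Rnf43 encodes a membrane ubiquitin ligase that removes Frizzled receptors and is itself a Wnt target. Its values were 0.42, 0.95, 0.42 and 0.78 in NB 2, 3, 5 and 8, against 1.24, 1.09, 0.41 and 0.52 in NN 1, 4, 6 and 7. In NN the arrays fell into a high and a low pair, NN 1 and NN 4 above NN 6 and NN 7, and the NB values lay between those extremes. The difference of -0.17 (SE 0.212, 95% interval -0.65 to 0.31) was smaller than the SD of either group, 0.265 in NB and 0.412 in NN.

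Znrf3 encodes the second ligase of this kind, a paralog of Rnf43 with the same receptors as targets. It had 3 probes, and the brightest, which represents the gene, read 4.60, 5.00, 5.29 and 6.05 in NB 2, 3, 5 and 8, against 5.07, 4.94, 5.76 and 5.50 in NN 1, 4, 6 and 7. NB held both the lowest array (NB 2) and the highest (NB 8), which lay 2.73-fold apart. Between genotypes the difference was -0.08 (SE 0.305, 95% interval -0.78 to 0.61), small beside SDs of 0.612 in NB and 0.378 in NN. Its spread within genotypes was wider than that of 95.8% of all features.

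The other Znrf3 probes were far dimmer and spread less. The second averaged -1.62 in NB and -1.64 in NN and the third -3.13 and -3.24, against 5.23 and 5.32 for the brightest. The level of the gene thus depends on the probe. Relative to their own means over the 8 arrays, the second probe stayed between -0.08 and 0.08 in NB and between -0.17 and 0.12 in NN, and the third between -0.18 and 0.32 in NB and between -0.37 and 0.13 in NN. Their differences between genotypes were 0.02 (SE 0.0886) and 0.11 (SE 0.149), of opposite sign to that of the brightest probe; neither passed the test. Across the 8 arrays the brightest probe correlated with the second at r = 0.36 (rho = 0.33) and with the third at r = 0.23 (rho = 0.26), with p of 0.382 and 0.588 for r in exact permutation tests. Adjusted over the 6 pairs of probes within a member, these p were 0.573 and 0.706, and 0.536 for both rho. The second probe and the third, both listed under another Znrf3 transcript than the brightest, correlated with each other at r = 0.68 (exact permutation p = 0.0655, adjusted p = 0.393) and rho = 0.64 (exact permutation p = 0.0962, adjusted p = 0.397). Without the 2 arrays farthest from the median, these 3 coefficients were 0.03, -0.63 and 0.90.

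Most of the features that followed the brightest probe most closely have probes that share a run of alternating G and T with it. The first 30 bases of the 3 Znrf3 probes, and 30 bases of the probes of the 5 named genes with the highest r to the brightest one, are shown because the shared run can be read in them; these 5 genes were picked after their values were seen. Capitals mark the unbroken run of alternating G and T.
Znrf3, the brightest probe: GTGTGTGTctgtatgtgcatatttctccat
Znrf3, the second probe: acaaaccaacagacaaaaatctcttgagtc
Znrf3, the third probe: ctgacctgcatttttctattccttacataa
Igsf9: ctgaacaggaaTGTGTGTGTGTGTGTGTGT
Olfr1465: atgacttcagGTGTGTGTGTGTGTctttct
Ppargc1a: GTGTGTGTGTcctgtttttttttctttcct
Stk35os1: acacaaatataTGTGTGTGTGTGTGTtttt
Slc8a3: GTGTGTGTGTGTGccctcccacaaagagac

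Igsf9, Olfr1465, Ppargc1a, Stk35os1 and Slc8a3 each followed the brightest Znrf3 probe across the 8 arrays with r = 0.998. They lie on chromosomes 1, 19, 5, 2 and 12, while Znrf3 lies on chromosome 11, and they include an odorant receptor, the metabolic coactivator PGC-1alpha and a sodium-calcium exchanger. In all, 133 of 42511 features compared exceeded r = 0.99 with this probe, whereas no other member had more than 1 such feature. Of the 8-base stretches of the Znrf3 probe, GTGTGTGT was the one shared most often by features with r above 0.95, so its counts among them are a description. Of the 133, 125 (94.0%) have a probe that holds GTGTGTGT as listed in the files, against 0.816% of all features compared. The share was 59.6% (208 of 349) at r above 0.95, and at r above 0.9 the motif was in 229 of 831, so most of those looser followers lack it. Conversely, 347 features other than Znrf3 have a probe with this motif, and their median r with the Znrf3 probe was 0.98, against -0.09 for the remaining 42164. Of those 347, 66.0% exceeded r = 0.9, against 1.43% of the remainder. The reverse complement, ACACACAC, was present without GTGTGTGT in the probes of 181 features (0.426% of those compared). These ran the other way, with a median r of -0.76 to the Znrf3 probe, and 1 of them exceeded r = 0.9.

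The mean of the 133 features, each centred on its own mean, was -0.72, -0.29, 0.02 and 0.85 in NB 2, 3, 5 and 8, against -0.27, -0.32, 0.57 and 0.17 in NN 1, 4, 6 and 7. The Znrf3 probe, centred in the same way, was -0.68, -0.28, 0.02 and 0.77 in the NB arrays, against -0.21, -0.33, 0.48 and 0.22 in the NN arrays. The profiles matched closely on each array, and in both the genotypes overlapped. The signal ran with position on the slide: over the slide's 4 columns, each with 1 array of either genotype, the Znrf3 probe averaged 4.83, 4.97, 5.52 and 5.77. Columns run in the order of the sample numbers, so position and sample number cannot be told apart. Whether the run of G and T sets the signal of this probe was not tested, and the level of Znrf3 here is that of 1 probe with this property.

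**Figure D2:**
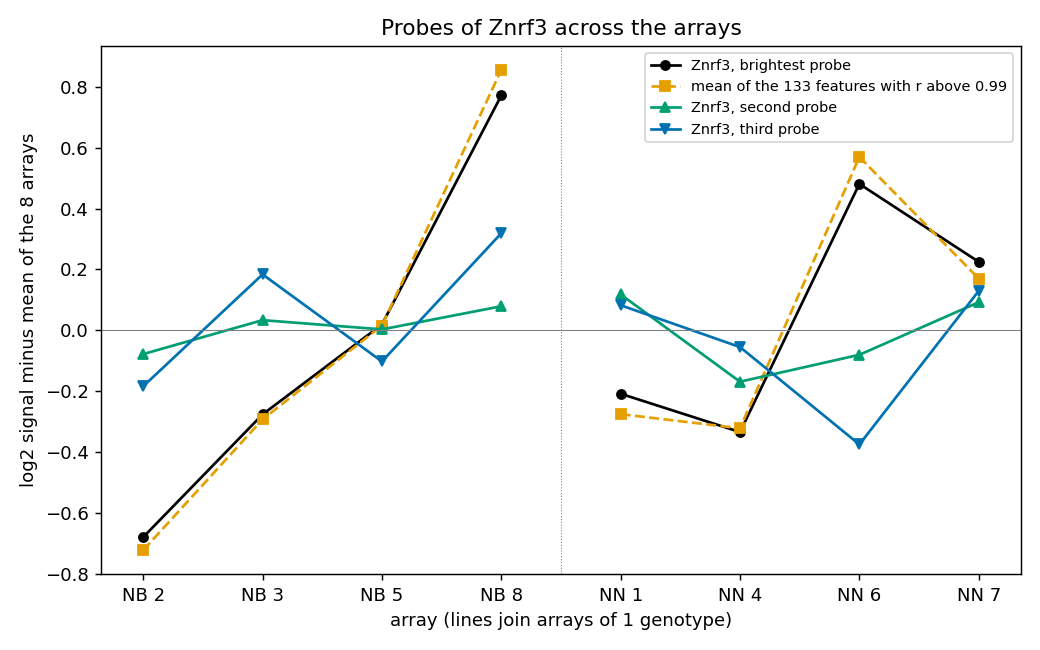
Log2 signal minus the mean of the 8 arrays (y axis) on each array (x axis, NB left and NN right of the dotted line) for the 3 Znrf3 probes and for the mean of the 133 features that correlate with the brightest probe at r above 0.99. The brightest probe and the 133 features run together, lowest at NB 2 and highest at NB 8, while the second probe stays between -0.17 and 0.12.

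Axin2 encodes a scaffold of the complex that destroys beta-catenin, and is induced by the pathway in nearly every tissue as a brake. Its values were 0.11, -0.20, -0.04 and -0.45 in NB 2, 3, 5 and 8, against -0.38, -0.07, -0.09 and -0.06 in NN 1, 4, 6 and 7. In NN, array 1 stood well below the other 3, and NB again held the highest and the lowest array. The means were -0.14 ± 0.239 in NB and -0.15 ± 0.152 in NN (SD, n = 4 each), a difference of 0.01 (SE 0.133, 95% interval -0.30 to 0.31), the nearest to 0 of the 10 members.

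Tbx3 encodes a T-box transcription repressor that acts downstream of beta-catenin in hepatocytes. It had the largest difference among the members. Its values were 0.59, 1.74, 1.04 and 0.69 in NB 2, 3, 5 and 8, against 1.47, 2.13, 1.26 and 0.96 in NN 1, 4, 6 and 7. NB 2 and NB 8 lay below every NN array, while NB 3 lay above all but NN 4. The means were 1.01 ± 0.519 in NB and 1.45 ± 0.497 in NN (SD, n = 4 each), a difference of -0.44 (SE 0.304, 95% interval -1.13 to 0.25) with an unadjusted p of 0.183 in limma's test. In linear terms NB was at 0.737 of NN, with an interval of 0.456 to 1.19.

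The Tbx3 difference was -1.05 in the first slide row and 0.17 in the second, with 2 arrays of each genotype in either row; the difference between rows was not tested. In a limma fit with the slide column as a block it kept its size with a standard error of 0.129 and an unadjusted p of 0.0158, and its adjusted p stayed at 1.00. In that fit 1226 of 42982 features had an unadjusted p under 0.05, against 728 without the block. Without NB 3 the Tbx3 difference was -0.68, and without NN 4 it was -0.21, both with an adjusted p of 1.00. The 8 values spanned 2.92-fold, the widest of the 10 members, and the SD within genotypes exceeded that of 95.7% of features.

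Glul encodes glutamine synthetase, the enzyme of the last pericentral hepatocytes. It stood at 4.34, 4.42, 4.38 and 4.55 in NB 2, 3, 5 and 8, against 4.17, 4.36, 4.59 and 4.46 in NN 1, 4, 6 and 7. NN held the lowest and the highest array and the 4 NB arrays fell between them. The means were 4.42 ± 0.091 in NB and 4.39 ± 0.178 in NN (SD, n = 4 each), a difference of 0.03 (SE 0.103, 95% interval -0.21 to 0.26). In linear terms this is a ratio of 1.02 with an interval of 0.866 to 1.20, among the tightest bounds of the 10. Over the 4 slide columns Glul averaged 4.25, 4.39, 4.48 and 4.51.

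Oat encodes ornithine aminotransferase, which feeds glutamate into the same cells. Its values were 5.86, 5.26, 5.49 and 5.69 in NB 2, 3, 5 and 8, against 5.90, 5.99, 5.30 and 5.49 in NN 1, 4, 6 and 7. The lowest array was NB 3 and the highest NN 4, with NN 6 and NN 7 down among the lower NB arrays. The difference was -0.09 (SE 0.183, 95% interval -0.51 to 0.33), within SDs of 0.257 in NB and 0.328 in NN.

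Slc1a2 encodes the glutamate transporter GLT-1, best known from astrocytes and in liver confined to pericentral hepatocytes. It read 0.54, 0.79, 0.44 and 0.41 in NB 2, 3, 5 and 8, against 0.69, 0.72, 0.22 and 0.39 in NN 1, 4, 6 and 7. NB 3 was the highest array and NN 6 the lowest. The difference was 0.04 (SE 0.137, 95% interval -0.27 to 0.35), and its other 2 probes gave 0.02 (SE 0.0977) and 0.14 (SE 0.152). The brightest probe correlated with these at r = 0.39 (rho = 0.60) and r = 0.40 (rho = 0.38), with p of 0.346 and 0.317 for r and 0.132 and 0.360 for rho in exact permutation tests, none below 0.397 when adjusted over the same 6 pairs of probes.

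Rhbg encodes an ammonium transporter of the Rhesus family on pericentral hepatocytes. It stood at 1.70, 1.30, 1.53 and 1.54 in NB 2, 3, 5 and 8, against 1.67, 1.68, 1.62 and 1.49 in NN 1, 4, 6 and 7. NB 3 was the lowest array and NB 2 the highest, and 3 of the 4 NN arrays lay between NB 8 and NB 2. The means were 1.52 ± 0.165 in NB and 1.62 ± 0.087 in NN (SD, n = 4 each), a difference of -0.10 (SE 0.0989, 95% interval -0.33 to 0.12).

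**Figure D3:**
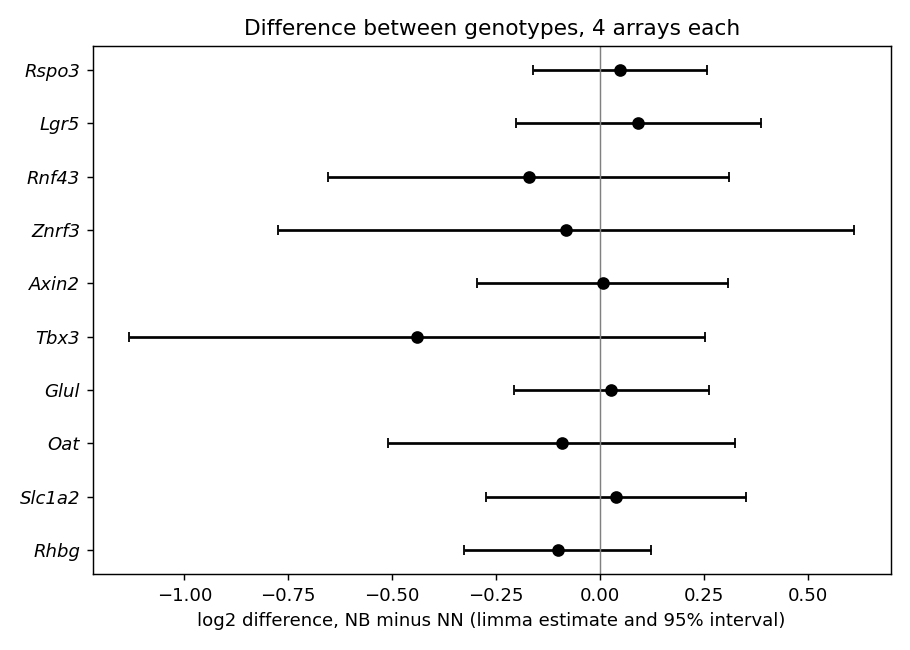
Log2 difference, NB minus NN, of each of the 10 members (points) with limma's 95% interval (bars). All 10 intervals include 0, and the widest are those of Znrf3 (-0.78 to 0.61) and Tbx3 (-1.13 to 0.25).

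No pair of the 10 genes passed the adjusted threshold for covariation across the arrays. Covariation of the 10 genes as a group was not tested. Of their 45 pairs, 21 had a Pearson r above 0 and 24 below 0, with a median of -0.09, a lowest value of -0.87 and a highest of 0.78. In exact permutation tests over all 40320 orders of 8 arrays, no pair passed an adjusted p of 0.05 (the smallest was 0.383), while 4 pairs had an unadjusted p under 0.05 by Pearson's r and 3 by Spearman's rho. Within each genotype's deviations from its mean, and in deviations from slide rows, the count past the adjusted threshold was again 0. Such deviations sum to 0 within a genotype or row, so permuting them over all 8 arrays is not exact.

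Rhbg and Rspo3 ran most strongly against each other, with r = -0.87 (exact permutation p = 0.00851, adjusted p = 0.383) and rho = -0.69 (exact permutation p = 0.0694, adjusted p = 0.467). NB 3 and NB 2, at the opposite ends of both genes, stood out here, and r was -0.41 without the 2 arrays farthest from the median of Rhbg. Over the alternative settings the adjusted p of this pair ran from 0.0536 with median scaling to 0.544 without NN 7. Oat and Rhbg went the same way at r = 0.74 (exact permutation p = 0.0268, adjusted p = 0.400) and rho = 0.76 (exact permutation p = 0.0368, adjusted p = 0.467). Without the 2 farthest arrays r was 0.55, without NN 6 it was 0.95 (adjusted p = 0.0893 in the exact permutation test), and in deviations from the slide column means it was 0.86. Slc1a2 and Rnf43 had r = 0.78 (exact permutation p = 0.0297, adjusted p = 0.400) and rho = 0.71 (exact permutation p = 0.0576, adjusted p = 0.467), unchanged at 0.78 without the 2 farthest arrays and 0.51 in column deviations.

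The remaining pair of the 4 joined Glul and the brightest Znrf3 probe, with r = 0.72 (exact permutation p = 0.0407, adjusted p = 0.400) and rho = 0.79 (exact permutation p = 0.0279, adjusted p = 0.467). Without the 2 farthest arrays r was 0.93. Both genes averaged lowest in the first slide column and highest in the fourth, and in deviations from the column means r was 0.26. With the second and the third Znrf3 probe in place of the brightest, r with Glul was -0.15 and -0.08. Slc1a2 and the brightest Znrf3 probe, at r = -0.69 (exact permutation p = 0.0609, adjusted p = 0.400) and rho = -0.76 (exact permutation p = 0.0368, adjusted p = 0.467), had -0.05 in column deviations.

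Glul and Axin2, an enzyme at the end of the pericentral programme and a direct readout of the pathway, had r = 0.02 (exact permutation p = 0.971, adjusted p = 0.978) and rho = -0.26 (exact permutation p = 0.536, adjusted p = 0.754). Leaving out single arrays moved this r anywhere between -0.61 and 0.45, the lowest without NN 1, and it was -0.87 without the 2 arrays farthest from the median of Glul. Glul and Slc1a2, which share the last pericentral cell layer, had r = -0.68 (exact permutation p = 0.0619, adjusted p = 0.400) and rho = -0.67 (exact permutation p = 0.0831, adjusted p = 0.467), with r at -0.45 without the 2 farthest arrays and -0.83 in column deviations. The nitrogen-handling genes did not all run the same way. Glul and Oat had r = -0.60 (exact permutation p = 0.116, adjusted p = 0.434), and -0.87 in slide row deviations. The r was -0.31 for Glul with Rhbg, -0.17 for Slc1a2 with Rhbg and 0.39 for Oat with Slc1a2. With 8 arrays and 45 pairs, only very strong relations could pass, so moderate ones were not detectable.

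**Figure D4:**
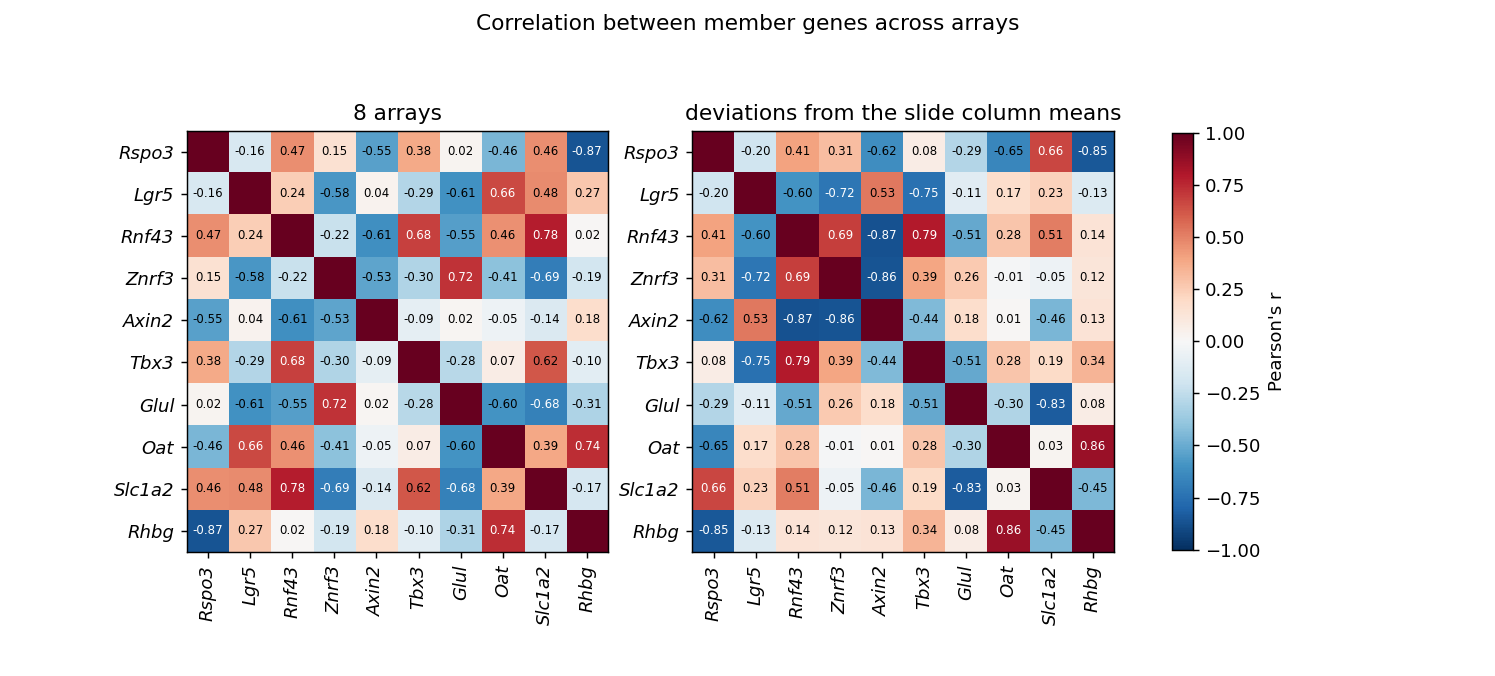
Pearson's r for each pair of members over the 8 arrays (left) and over deviations from the slide column means (right), in colour from -1 to 1 with the value in each cell. Oat with Rhbg (0.74 left, 0.86 right) and Rhbg with Rspo3 (-0.87 left, -0.85 right) look alike in both panels, while Glul with Znrf3 goes to 0.26 on the right. Values on the right rest on 1 NB minus NN difference per slide column, so they hold less information than those on the left.

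Among named genes outside the 10, those most like Glul over the 8 arrays were Ctu1 (r = 0.987), Ddx21 (0.952), Olfr1101 (0.949), Noc4l (0.949) and Setmar (0.947). Those most like Axin2 were Gm33047 (r = 0.999), Dpysl5 (0.977), Gm32820 (0.975), Irf4 (0.975) and Scgb2b26 (0.975). With 42511 features compared over 8 arrays, coefficients of this size are a description only. For Glul, 6 features exceeded r = 0.95, and for Axin2, 53 did. The probes of those 53 averaged 65.1% C and T, against 54.8% over all features compared (SD 10.4). The Axin2 probe itself holds 63.5%, with an unbroken run of 14 T near its start. The part of base composition in this likeness was not tested.

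Other pericentral hepatocyte genes, 16 of 16 tested, gave no call either. None passed the adjusted threshold or had an unadjusted p under 0.05, 7 were above 0 and 9 below, and the median log2 difference was -0.02. The 3 with the smallest p were the steroid and drug oxidase Cyp3a11 at 4.84 in NB and 5.08 in NN (difference -0.23, SE 0.107), the dicarboxylate transporter Slc13a3 at 3.04 in NB and 2.83 in NN (0.21, SE 0.105) and the oxidase Cyp2c37 at 5.93 in NB and 6.09 in NN (-0.16, SE 0.0941).

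The periportal genes, which occupy the opposite end of the lobule, were mostly below 0 in NB minus NN, without a call. Over all 42982 features, 45.9% were above 0, and 1.69% had an unadjusted p under 0.05 (317 higher and 411 lower). Of the 18 periportal genes tested, 4 were above 0 and 14 below, with a median of -0.16. At an unadjusted p under 0.05 there were 3, all lower in NB. These 3 were enzymes of the urea cycle, each with an adjusted p of 1.00 in limma's test. Ass1, argininosuccinate synthase, stood at 6.84 ± 0.103 in NB and 7.14 ± 0.227 in NN (SD, n = 4 each), a difference of -0.29 (SE 0.120). Cps1, carbamoyl phosphate synthetase, stood at 5.84 ± 0.204 in NB and 6.14 ± 0.171 in NN (-0.30, SE 0.127). Asl, argininosuccinate lyase, stood at 3.44 ± 0.316 in NB and 3.81 ± 0.142 in NN (-0.36, SE 0.157). The mean of the centred values of the list ran from -0.35 in NB 3 to 0.14 in NB 8, against 0.06 to 0.13 in the NN arrays, so NB 3 was by far the lowest array. For the 10 members the same mean ran from -0.09 to 0.02 in NB, against -0.06 to 0.16 in NN.

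Further up the pathway, no gene was called. Beside the counts in these lists, 45.9% of all features were above 0. Of the Wnt and R-spondin ligands with their secretion factors, 13 of 13 were tested, 9 above 0 and 4 below, with a median of 0.07. The smallest p in it belonged to Wnt11 (difference -0.35, SE 0.177), Wnt9a (0.16, SE 0.0894) and the Wnt carrier Wls (0.13, SE 0.0803). Of 32 receptors and transducers, 28 passed the filter on dim probes, 11 above 0 and 17 below, with a median of -0.01, led by the receptors Fzd2 (-0.25, SE 0.251) and Fzd1 (0.12, SE 0.132) and the adaptor Dvl3 (-0.06, SE 0.0812). Wnt11, at -3.85 in NB and -3.50 in NN, and Fzd2, at -4.87 and -4.61, were dim, and the others named here were brighter. The lowest signal well above background lay between -6.30 and -5.51 on the arrays.

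Of 20 feedback genes and antagonists, 19 were tested, 9 above 0 and 10 below. Their smallest p belonged to the Dishevelled binder Nkd2 (difference 0.13, SE 0.0979), the receptor Tnfrsf19 (-0.10, SE 0.0983) and Notum, an enzyme that inactivates Wnt proteins (-0.13, SE 0.156). Of 16 listed genes of glutamine, ornithine and ammonia handling, 14 were tested, 4 above 0 and 10 below, with a median of -0.07. The amino acid transporters Slc1a3 (-0.14, SE 0.0760), Slc1a1 (-0.14, SE 0.0970) and Slc1a5 (0.22, SE 0.170) led this list. In these 4 lists no gene reached an unadjusted p under 0.05. The probes that represent Dkk1, a secreted antagonist, and Slc7a2, a transporter of basic amino acids, also hold GTGTGTGT, and they followed the brightest Znrf3 probe at r = 0.975 and r = 0.996.

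**Figure D5:**
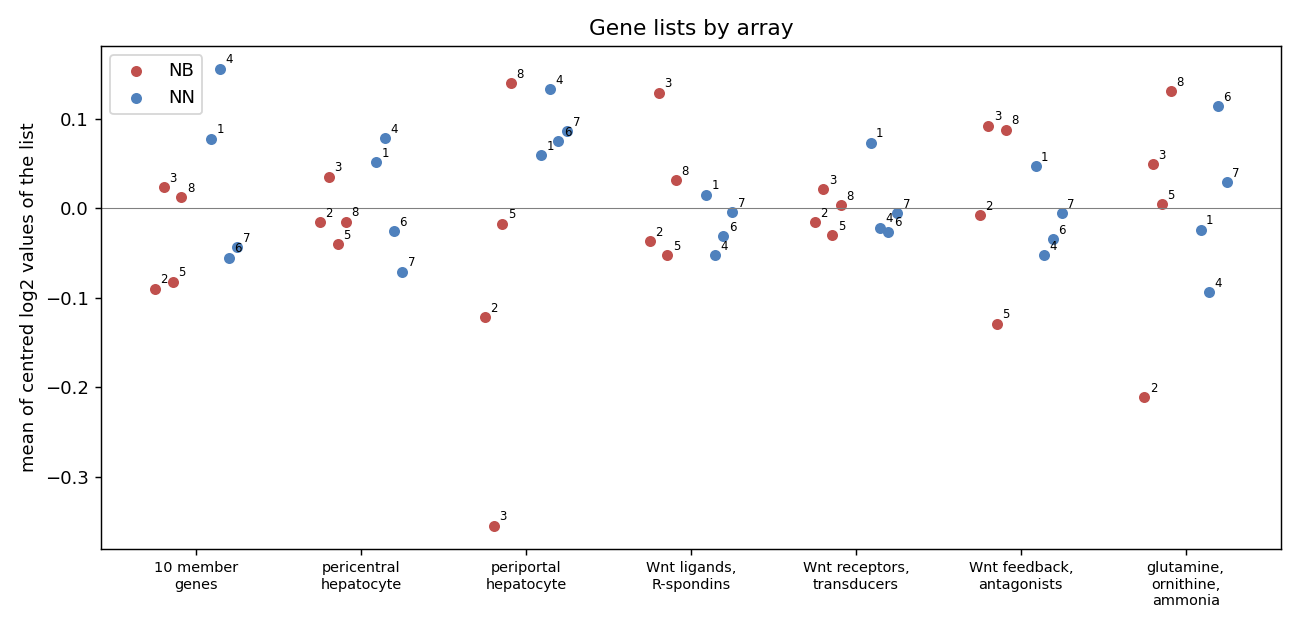
Mean of the centred log2 values (y axis) of the 10 members and of the 6 pathway lists, without the cell type marker lists, by array, NB left and NN right within each list, with array numbers beside the points. The genotypes overlap in every list shown, and the lowest point shown is NB 3 in the periportal list, at -0.35.

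No marker of other liver cells was called, and the mean of each marker list overlapped between the genotypes. Beside the counts below, 45.9% of all features were above 0 and 1.69% had an unadjusted p under 0.05. The median difference was 0.00278 for 10 sinusoidal endothelial markers and 0.03 for 6 central vein endothelial markers, with none at an unadjusted p under 0.05. The summed linear level of the central vein markers, in units of each array's 75th percentile, ran from 11.0 to 13.5 in NB and from 11.3 to 13.0 in NN. Kupffer cell markers had a median of 0.20, 5 of 6 above 0 and a sum of 31.0 to 43.6 in NB against 29.1 to 38.8 in NN, also with none at an unadjusted p under 0.05. Of 8 stellate cell markers, 1 had an unadjusted p under 0.05, the growth factor receptor Pdgfrb (difference 0.36, SE 0.118, unadjusted p = 0.0140, adjusted p = 1.00 in limma's test), which lies on chromosome 18, where the genotypes differ; whether it is inside the differing segment is not given here. Of 7 cholangiocyte markers 2 were above 0 and 5 below (median -0.02), with the largest difference in Spp1 (0.47, SE 0.218, unadjusted p = 0.0623). All 6 proliferation markers were above 0 (median 0.14), and none had an unadjusted p under 0.05. The mean of their centred values ran from -0.30 to 0.25 in NB and from -0.44 to 0.23 in NN. The medians of the 8 hepatocyte and the 7 lymphocyte markers were -0.0080 and 0.0091. The part of these cells in the members' values was not tested.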

How the data were processed

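Total liver RNA of 8 samples was labelled with Cy3 and hybridised to 1 array each. Per the file headers, scans were read by Agilent Feature Extraction 11.5.1.1 (version 9.1 in the submitters' processing notes), and the deposited processed signal is a background-subtracted intensity that was not normalized between arrays. The authors' value table (59448 rows) also holds intensities, and its columns share the same sorted values, with a median of 84.2; its scale and centring are not stated. It served as an alternative.

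Spots marked as outliers (248 to 621 per array) were treated as missing and spots of 1 probe averaged, giving 60273 probes. Accessions without version were matched to RefSeq symbols of GRCm38.p6, which named 31064 probes with 26698 genes; no coordinates were used. Log2 processed signal was set relative to each array's 75th percentile. Filtering kept 46848 probes that were well above background on 4 or more arrays, and the brightest stood for its gene. Probe sequences are those of the deposited scanner files.

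NB was compared with NN in limma 3.58.1 (R 4.3.3; two-sided, NB minus NN, Benjamini-Hochberg over all features). Correlations used exact permutation over 8 arrays, two-sided, adjusted over the 45 pairs. For deviations from genotype, slide row or slide column means the same permutation is not exact. Both procedures were tested on simulated data. Whether every array is from its own animal is not stated outright in the labels, and p-values cover only the spread among the samples, which may be technical. The members, gene lists and tests were chosen with earlier results of these data known. All 10 members are named, as are the 3 genes of each pathway list with the smallest unadjusted p, the 5 genes most like Glul and Axin2, and the called features; genes named beside the Znrf3 probe and among the cell type markers were picked after their values were seen. Alternatives were normexp background correction (offset 50), quantile and median scaling, the authors' table, other filters on dim probes, averaging a gene's probes, slide row and column, a trended robust variance, array weights, and leaving out each array; single probes, other Znrf3 probes, column deviations and the reverse complement of the probe stretch were added after seeing the data.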

Additional observations from a re-analysis of the deposited data

Results flagged for a closer look

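In 64 sets of 4 arrays of 1 genotype (members, their other probes, means of the member, pathway and marker lists, and each array's 75th percentile, share of probes well above background and mean correlation), 4 had 1 array far from the other 3, or 6.25%, where chance gives about 5%. Axin2 was low in NN 1, at -0.38 against -0.09 to -0.06 in the other NN arrays; without NN 1 the difference NB minus NN was -0.07. The mean of the proliferation markers was low in NB 3, at -0.30 against 0.18 to 0.25 in the other NB arrays. The mean of the lymphocyte markers was low in NN 6, at -0.11 against 0.04 to 0.06 in the other NN arrays. The mean correlation with the other arrays was low in NB 8, at 0.9904 against 0.9929 to 0.9931 in the other NB arrays; without NB 8 the difference of the brightest Znrf3 probe was -0.35.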

How the results depend on the processing

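No member and no pair of members passed an adjusted p of 0.05 under any alternative run, and no member passed 0.1. Of the pairs followed through all alternatives, those below 0.1 were Rhbg with Rspo3 (0.0536 with median scaling, 0.0603 in the authors' table) and Oat with Rhbg (0.0893 without NN 6). The count of called features was 5 when a gene's probes were averaged and ran from 2 to 3 with single arrays left out. The Znrf3 difference was 0.015 with its probes averaged, 0.019 for its second probe and 0.11 for the third. The r of Glul with these probes was -0.15 and -0.077, that of Rnf43 was 0.17 and 0.50 (0.033 with probes averaged, 0.69 in slide column deviations), and that of Slc1a2 with the third was 0.39. The r of Glul and Axin2 was -0.041 in slide row deviations and ran from -0.61 to 0.45 with single arrays left out. The cause of these changes was not tested. With single arrays left out, the differences ran from -0.049 to 0.091 in Glul, -0.22 to 0.014 in Oat, -0.056 to 0.11 in Slc1a2, -0.079 to 0.11 in Axin2, -0.35 to 0.13 in Znrf3 and -0.018 to 0.11 in Rspo3, all crossing 0. They ran from -0.68 to -0.21 in Tbx3, -0.31 to -0.031 in Rnf43, -0.16 to -0.029 in Rhbg and 0.00036 to 0.16 in Lgr5. No analysis paired by sample number was run, because no number is shared between genotypes. With the slide column as a block, which sets 1 NB against 1 NN array in each column, 3 features and 0 members were called. In that fit 1 member (Tbx3) had an unadjusted p under 0.05, as did 1226 of 42982 features. Tbx3 was also under 0.05 without NB 3, as were 719 features in that run. With the slide column as a block the members' fits changed as follows. Standard errors moved both ways in that fit. They went from 0.305 to 0.189 in Znrf3 and from 0.133 to 0.151 in Axin2. Every member was well above background. The number of arrays is small, and what limits the precision was not tested.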
